A study of Mus musculus with 30 samples.

Results

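The comparison described here is between 3 liver libraries from mice injected with insulin and 3 from mice injected with phosphate-buffered saline (PBS, the vehicle), all taken at the sampling point that the labels number 4. These 6 libraries belong to a series of 30, with 5 numbered points and 3 libraries per treatment at each. All mice were C57BL/6J, an inbred strain, aged 10 weeks. They went without food for 12 to 16 h before human insulin at 0.7 U/kg, or PBS, was given into the peritoneum, and the left lobe of the liver was taken over a period of 4 h. The labels name no engineered allele, and the controls shared the fast and the injection. The labels give no minutes for the points, which are therefore named by number, and no order in time is assumed. Of the 29117 genes in the deposited table, 12176 reached 1 FPKM (fragments scaled to transcript length and library size) in at least 3 of the 6 libraries and were tested.

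As background, insulin acts on hepatocytes through its receptor and the kinase Akt, which phosphorylates transcription factors of the Foxo family and so keeps them out of the nucleus. In the fasted liver, Foxo proteins, CREB and the glucocorticoid receptor maintain genes of glucose production and of fuel switching, and a fall in insulin or a rise in counter-regulatory hormones restores them. The liver also holds resident macrophages (Kupffer cells) and sinusoidal endothelial cells, whose transcripts are part of a whole-lobe measurement.

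Libraries of a group correlated at a Pearson r of 0.971 to 0.985 across genes, and libraries of different groups at 0.947 to 0.974, on the log2(FPKM + 1) scale. Insulin replicates 1, 2 and 3 were run on lanes 2, 1 and 2 and the PBS replicates on lanes 3, 4 and 5, which leaves the treatment and the lane confounded, and they cannot be told apart. Over all genes PBS replicate 1 correlated at 0.985 with PBS replicate 2, and PBS replicate 3 with these at 0.972 and 0.974. Insulin replicate 1 and PBS replicate 1 stood apart in the sums of particular RNAs. The 2 mitochondrial ribosomal RNAs summed to 5850 FPKM in insulin replicate 1 against 638 to 1515 in the other 5 libraries, and the nuclear RNA Rn7sk to 354 against 18.5 to 27.6. PBS replicate 1 held the highest summed level of the interferon response list (328 FPKM, against 205 and 212 in the other PBS libraries) and of Kupffer cell markers (358, against 185 and 210). Hepatocyte markers summed to 45331 to 56506 FPKM in insulin and 47047 to 54160 in PBS, as the tissue label has it, while markers of lymphocytes reached at most 4.94 FPKM in sum and those of adipocytes 0.506. In a piece of whole tissue, fewer cells of a type and less RNA per cell cannot be told apart.

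A gene is said to have risen or fallen where limma's test of insulin against PBS at point 4 gave a Benjamini-Hochberg adjusted p below 0.05. By this rule 391 of 12176 genes (3.21%) rose and 1444 (11.9%) fell. Counts of list members below are to be read beside these shares. A difference of 2-fold or more was reached by 54 of those that rose and 154 of those that fell, on the log2(FPKM + 1) scale, a scale that makes changes of low genes look smaller. The median difference over all genes tested was -0.14, so the balance of directions depended on how the libraries were scaled. After median-ratio scaling, which moved that median to -0.01, 934 genes rose and 828 fell, and after quantile normalization 1020 rose and 873 fell. All 391 genes that rose and 772 of the 1444 that fell passed under both scalings. The 3 insulin libraries lay above all 3 PBS libraries for 1022 genes (8.39%) and below them for 3104 (25.5%).

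**Figure D1:**
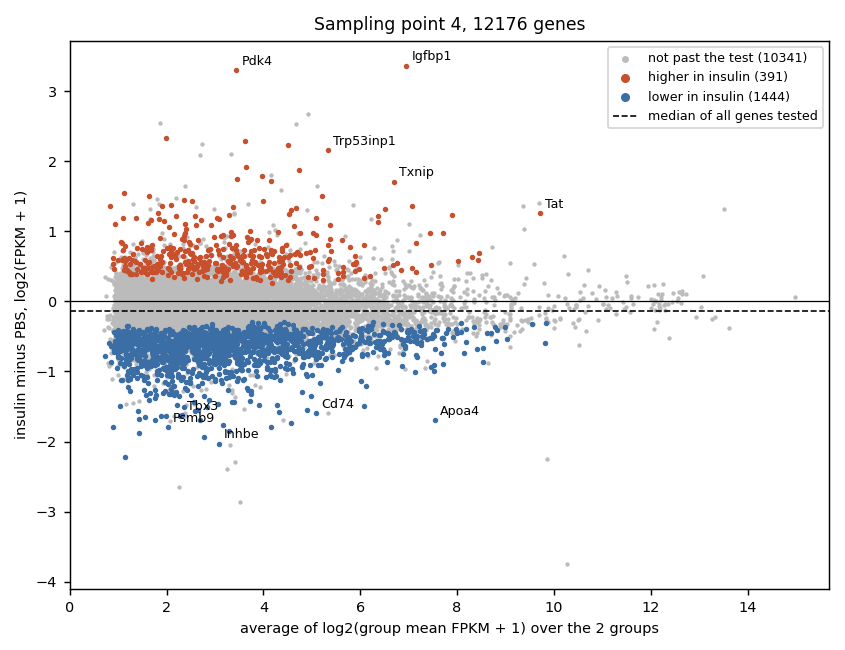
Difference between insulin and PBS at point 4 (vertical axis, log2(FPKM + 1)) against the average level of the 2 groups (horizontal axis, same scale) for the 12176 genes tested. Coloured points passed the test, 391 above 0 and 1444 below it, and the dashed line at -0.14 marks the median of all genes.

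Calls also depended on single libraries. With each of the 6 libraries left out in turn, 112 of the 391 genes that rose and 297 of the 1444 that fell passed every time. The number that fell dropped to 472 without insulin replicate 1, 534 without insulin replicate 2 and 576 without PBS replicate 3, and the number that rose to 150 without insulin replicate 2 and 153 without PBS replicate 3. The fit of only the 6 libraries, which has fewer degrees of freedom, called 102 of the 391 and 260 of the 1444 again. In the text that follows a call held through all 6 of these fits unless a library is named beside it. Among the genes described below, the calls of Agxt, Igfals, Rxra, C1qb, Csf1r, Gpr182 and H2-Ab1 nevertheless ended with insulin replicate 1 and PBS replicate 1 both left out (adjusted p of 0.0662 for Gpr182 to 0.177 for Csf1r). In the fit of only the 6 libraries, some calls that held with each library left out ended. These were Tap1, Ifit1, Cd74, Cxcl9, H2-Aa, H2-Ab1, H2-Eb1, Igtp, Tgtp1, C1qb, Csf1r, Gpr182, Prox1, Rxra, Cideb, Spns2, Slc43a1 and Dnmbp. Their adjusted p by limma ran from 0.05 for Cideb to 0.12 for Igtp. Of the calls with a library named beside them, those of Fbp1, Pcx, Got2, Slc37a4, Ifit3, Isg15, Gbp2, Psmb10 and Cxcl1 ended there too. So did those of Clec4f, Spry4, Dusp6, Plin2, Fasn, Cry1, Igfbp2, Pmvk and Hmox1. Adjusted p for these ran from 0.05 for Pmvk to 0.188 for Gbp2.

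Among the highest differences were genes known to be low under insulin and high in fasting, and at point 4 they were higher in the insulin livers. Igfbp1, whose secreted product binds insulin-like growth factors (chromosome 11, 7197782 to 7202546, GRCm38), read 495, 224 and 470 FPKM in insulin replicates 1, 2 and 3 and 26.9, 31.1 and 52.9 in the PBS replicates. The lowest insulin library lay far above the highest PBS library, and the difference was 3.36 ± 0.55 (SE, n = 3 per group, limma adjusted p = 0.000403). This SE and those of the differences below come from the fit of all 30 libraries. Pdk4, the kinase that switches off pyruvate dehydrogenase and spares glucose carbon (chromosome 6, 5483351 to 5496309), read 37.7, 39.5 and 22.8 FPKM in insulin and 2.80, 1.96 and 2.50 in PBS. The groups were wide apart, with a ratio of means of 13.8 and a difference of 3.30 ± 0.26 (adjusted p = 2.82e-08). Txnip, an arrestin-like protein that limits glucose uptake (chromosome 3, 96557957 to 96561883), read 195, 180 and 180 FPKM in insulin against 62.7, 46.3 and 60.4 in PBS. It rose by 1.71 ± 0.16 (adjusted p = 4.16e-07), and the spread within each group was small beside that gap.

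The list of Foxo targets held 17 tested genes, of which 5 rose, none fell and 12 did not pass, with a median of 0.28 against -0.14 for all genes. The 5 were Igfbp1, Pdk4, Txnip, G6pc and Ccng2, a cyclin of cell cycle exit, and the count was 5 or 6 with any library left out and 8 under either scaling. G6pc, the phosphatase subunit that lets hepatocytes release glucose, read 230, 142 and 272 FPKM in insulin and 62.4, 68.7 and 119 in PBS. The groups did not overlap, although insulin replicate 2 lay close to PBS replicate 3, and the difference was 1.36 ± 0.29 (adjusted p = 0.0045). With insulin replicate 1 and PBS replicate 1 both left out, the G6pc call ended (adjusted p = 0.0865). Irs2, an insulin receptor substrate and a further Foxo target, read 5.94, 3.58 and 8.30 FPKM in insulin against 3.43, 3.73 and 4.20 in PBS, and the overlapping groups gave a difference of 0.48 ± 0.38 (adjusted p = 0.401).

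**Figure D2:**
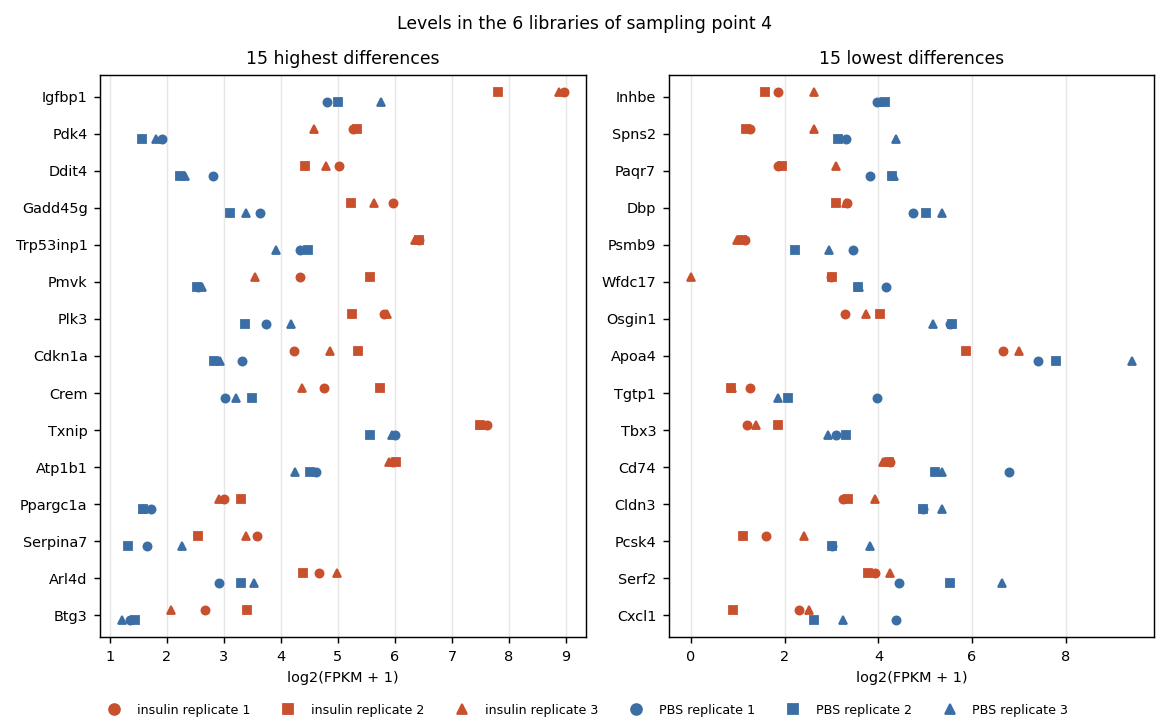
Levels (log2(FPKM + 1)) of the 15 genes with the highest and the 15 with the lowest difference among those that passed the test, had groups that did not overlap and reached a mean of 5 FPKM. Each symbol is 1 library, insulin in red and PBS in blue, and the red and blue symbols of every gene lie apart.

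Gluconeogenic genes went in both directions. Of 14 tested, 5 rose and 4 fell. Those that rose included G6pc, Tat and Ppargc1a, the coactivator PGC-1alpha, which read 7.03, 8.83 and 6.58 FPKM in insulin and 2.31, 2.02 and 2.00 in PBS, a difference of 1.44 ± 0.15 (adjusted p = 1.69e-06). The 4 that fell were Fbp1, Pcx, Got2 and Slc37a4. Fbp1, fructose-1,6-bisphosphatase, had a difference of -0.53 (adjusted p = 0.0123) and Pcx, pyruvate carboxylase, of -0.56 (adjusted p = 0.0113). Over the alternatives the difference of Fbp1 ranged from -0.61 to -0.37 and that of Pcx from -0.72 to -0.39. By limma none of the list fell without insulin replicate 1, insulin replicate 2 or PBS replicate 3, where both genes stood at adjusted p of 0.0537 to 0.0827. Pck1, the cytosolic phosphoenolpyruvate carboxykinase, read 1356, 1157 and 1642 FPKM in insulin and 1349, 1273 and 1666 in PBS. The groups overlapped almost fully, with a difference of -0.05 ± 0.16 (adjusted p = 0.856).

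Srebf1, a regulator of fatty acid synthesis that insulin is known to raise, read 5.80, 5.95 and 6.29 FPKM in insulin against 7.48, 5.83 and 7.43 in PBS and did not pass (difference -0.17 ± 0.24, adjusted p = 0.664). PBS replicate 2 lay within the insulin range, so the groups overlapped.

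Of 24 genes of amino acid catabolism 3 rose, 2 fell and 19 did not pass, with a median of -0.07 (0.09 after median-ratio scaling), and of 10 genes of the urea cycle and glutamine 1 rose and 1 fell, with a median of -0.20. Tat, tyrosine aminotransferase, read 1332, 985 and 1605 FPKM in insulin against 484, 528 and 596 in PBS, and with 1307 against 536 FPKM on average it gained the most FPKM of all genes that rose. The difference was 1.26 ± 0.22 (adjusted p = 0.000688). Agxt, which transaminates glyoxylate with alanine, read 231, 255 and 238 FPKM in insulin and 115, 109 and 147 in PBS (0.97 ± 0.24, adjusted p = 0.00925). Slc25a15, the mitochondrial ornithine carrier of the urea cycle, read 191, 168 and 207 FPKM against 103, 113 and 98.6 (0.84 ± 0.11, adjusted p = 6.67e-05).

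Among 11 amino acid transporters tested, 3 rose and 2 fell. Slc38a2, a carrier of small neutral amino acids, stood at 59.6 against 27.2 FPKM (1.09 ± 0.24, adjusted p = 0.00571), and Slc16a10, a carrier of aromatic amino acids, at 52.4 against 29.6 FPKM (0.81 ± 0.11, adjusted p = 5.46e-05). Slc43a1, a carrier of branched-chain amino acids, moved the other way at low levels, from 3.36 FPKM in PBS to 1.11 in insulin (-1.08 ± 0.23, adjusted p = 0.00402).

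Of 16 tested growth arrest and p53 target genes, 8 rose, 1 fell and 7 did not pass, against 3.21% and 11.9% of all genes. The median was 0.45, and 8 rose and none fell after median-ratio scaling. Trp53inp1, a p53-induced nuclear protein of autophagy and arrest, read 84.2, 84.7 and 80.3 FPKM in insulin and 19.1, 21.2 and 14.1 in PBS. The insulin libraries were nearly equal and all lay far above PBS (2.15 ± 0.19, adjusted p = 3.12e-07). Ddit4, an inhibitor of the growth kinase mTORC1, read 31.4, 20.6 and 26.6 FPKM against 6.00, 3.72 and 3.97 (2.29 ± 0.37, adjusted p = 0.000373). Gadd45g, a stress protein of cell cycle arrest, read 61.3, 36.4 and 48.4 FPKM against 11.4, 7.67 and 9.44 (2.23 ± 0.33, adjusted p = 0.000144). Plk3, a stress-responsive polo-like kinase, stood at 49.6 ± 11.1 FPKM (SD, n = 3) against 12.9 ± 3.90. Cdkn1a, the cyclin-dependent kinase inhibitor p21, read 17.8, 40.0 and 27.9 FPKM against 8.98, 6.07 and 6.67, with no overlap, and its call ended without insulin replicate 2 (adjusted p = 0.0566). Without a library, 5 (insulin replicate 2) to 8 of the list rose.

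Myc, a transcription factor that drives growth and so lies outside that theme, rose from 1.97 to 5.96 FPKM (1.21 ± 0.24, adjusted p = 0.00203). Btg3, an antiproliferative protein, read 5.41, 9.59 and 3.20 FPKM in insulin against 1.56, 1.74 and 1.33 in PBS (1.38 ± 0.23, adjusted p = 0.000496).

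CREB, the factor that responds to cyclic AMP, had 8 tested targets on its list, of which 4 rose and none fell (median 0.57). They were Crem, Ppargc1a, Nr4a1 and Dusp1. Crem, which encodes modulators of the same response, read 26.1, 52.5 and 19.6 FPKM in insulin and 7.08, 10.3 and 8.25 in PBS, a difference of 1.72 ± 0.30 (adjusted p = 0.000758), with insulin replicate 2 highest. The call of Nr4a1, an orphan nuclear receptor, ended without insulin replicate 1 or 2 or any PBS replicate (adjusted p of 0.0637 to 0.127), and that of Dusp1, a MAP kinase phosphatase, without insulin replicate 1 (adjusted p = 0.0521), where 2 of the list were left. Of 15 glucocorticoid receptor targets 3 rose, Tat, Ddit4 and Dusp1, and none fell, with a median of 0.30. Some genes stand on more than 1 list, as Tat, Ddit4, Dusp1 and Ppargc1a do, so these counts are not separate evidence. Promoters were taken from RefSeq (GRCm38.p6, 250 bases before to 50 after the start), with those of 1 chromosome left out. They were matched by symbol for 8007 of 12169 tested symbols. The cyclic AMP response element TGACGTCA stood on either strand in 3.68% of all, 7.04% of genes that rose (19 of 270) and 2.69% of genes that fell (28 of 1040). Its shorter core TGACG stood in 36.42%, 40.74% and 28.27% of the same sets. The forkhead motif GTAAACA stood in 3.45%, 4.81% and 4.62% of the same sets.

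**Figure D3:**
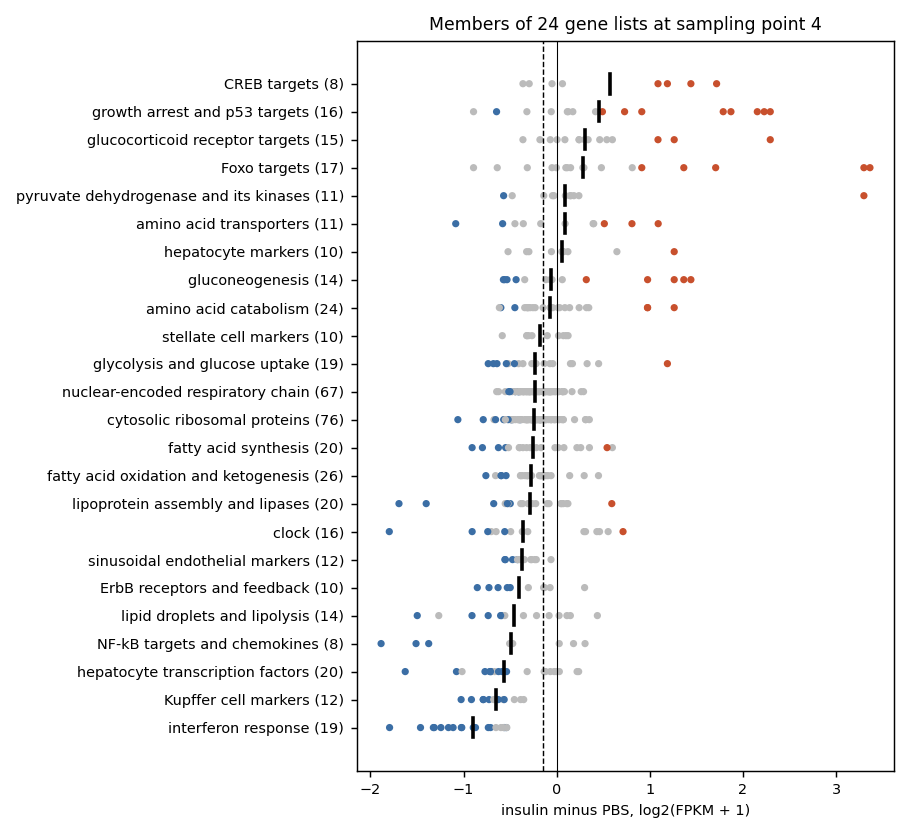
Differences between insulin and PBS (horizontal axis, log2(FPKM + 1)) of the tested members of 24 gene lists, with the number tested in brackets. Each dot is a gene, red where it rose, blue where it fell and grey where it did not pass, the black bars are list medians, and the dashed line is the median of all genes (-0.14). CREB targets (0.57) and the interferon response (-0.90) have the highest and lowest medians shown.

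Most of the interferon response list fell. Of its 19 tested members, 15 fell, none rose and 4 did not pass, and the median was -0.90 against -0.14 for all genes. After median-ratio scaling 11 of the 19 fell, after quantile normalization 12. Interferons signal through factors of the STAT and IRF families, which bind interferon-stimulated response elements or gamma-activated sites. To show such sites, the promoters of 4 members that fell and hold a match are printed 5′ to 3′ on the strand of the gene. Capitals mark every match to GAAANNGAA, the core of the interferon-stimulated response element, on either strand (a match on the other strand appears as its reverse complement), with overlapping matches included. They lie at chr19:34640639-34640938 (Ifit1, plus strand, 3 matches), chr19:34583279-34583578 (Ifit3, plus strand, 3 matches), chr4:156200769-156201068 (Isg15, minus strand, 3 matches) and chr3:142620413-142620712 (Gbp2, plus strand, 1 match).
Ifit1: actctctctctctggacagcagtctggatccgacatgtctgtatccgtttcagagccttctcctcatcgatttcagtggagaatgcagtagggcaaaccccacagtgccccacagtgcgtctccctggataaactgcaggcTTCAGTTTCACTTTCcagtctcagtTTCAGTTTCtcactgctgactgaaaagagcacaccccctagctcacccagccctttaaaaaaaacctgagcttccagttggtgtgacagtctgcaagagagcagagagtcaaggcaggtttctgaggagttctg
Ifit3: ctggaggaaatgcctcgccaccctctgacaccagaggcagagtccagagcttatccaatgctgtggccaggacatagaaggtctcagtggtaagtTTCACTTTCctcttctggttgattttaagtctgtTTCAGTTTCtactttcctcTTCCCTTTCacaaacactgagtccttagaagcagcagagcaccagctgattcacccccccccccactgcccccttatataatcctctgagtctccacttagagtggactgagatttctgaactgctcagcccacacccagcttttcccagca
Isg15: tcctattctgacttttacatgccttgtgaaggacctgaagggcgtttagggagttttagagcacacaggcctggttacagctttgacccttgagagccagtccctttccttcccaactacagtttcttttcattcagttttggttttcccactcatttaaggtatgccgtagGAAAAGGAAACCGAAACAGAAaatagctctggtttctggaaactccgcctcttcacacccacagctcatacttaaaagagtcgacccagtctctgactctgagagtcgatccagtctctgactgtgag
Gbp2: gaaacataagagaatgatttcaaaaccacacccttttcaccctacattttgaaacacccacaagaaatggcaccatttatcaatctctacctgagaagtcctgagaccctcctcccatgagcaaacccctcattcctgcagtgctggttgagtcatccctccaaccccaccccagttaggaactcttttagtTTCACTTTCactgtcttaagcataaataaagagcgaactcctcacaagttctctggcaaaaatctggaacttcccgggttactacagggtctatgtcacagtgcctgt

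The GAAANNGAA motif, chosen after the list's values were seen, stood in 8 of 17 interferon list promoters that could be matched (47.06%) and in 8.51% of all 8007. The gamma-activated site TTCNNNGAA, also chosen then, stood in 4 of the 17 (23.53%) and in 8.12% of all. Of 14 matched promoters of list members that fell, 7 held GAAANNGAA. Those of Irf1, Psmb9, Psmb8 and Tap1, which fell as well, held 0 matches to it. Motif matches describe these windows only and were not tested as sites of binding.

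Of the genes shown, Ifit1, an RNA-binding antiviral protein, read 2.46, 0.614 and 2.00 FPKM in insulin and 7.09, 4.76 and 4.64 in PBS, with no overlap (-1.32 ± 0.26, adjusted p = 0.00195). Ifit3, its partner, averaged 3.40 against 8.12 FPKM, and Isg15, a ubiquitin-like modifier, 3.32 against 9.29. Gbp2, a guanylate-binding GTPase, read 2.17, 0.870 and 1.28 FPKM against 7.75, 2.37 and 1.96, where insulin replicate 1 overlapped PBS replicate 3. The calls of Ifit3 and Isg15 ended without PBS replicate 1 (adjusted p = 0.0762 and 0.0576), that of Ifit3 also without insulin replicate 2 (0.0804), and that of Gbp2 without PBS replicate 1, insulin replicate 2 or insulin replicate 3 (adjusted p of 0.0563 to 0.239) and under both scalings (0.066 and 0.0649).

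With each library left out in turn, 7 members of the list fell every time. Among them were Ddx58, the transcription factor Irf1 and the antigen-processing genes Psmb9, Psmb8 and Tap1. Irf1, which responds to interferon gamma, read 3.57, 4.11 and 4.06 FPKM in insulin and 19.5, 11.0 and 9.11 in PBS (-1.46 ± 0.21, adjusted p = 0.000129). Psmb9, a subunit of the immunoproteasome that cuts peptides for antigen presentation (chromosome 17, 34181987 to 34187764), read 1.21, 1.14 and 0.989 FPKM against 9.95, 3.69 and 6.65 (-1.79 ± 0.27, adjusted p = 0.000168). Its partner subunit Psmb8 stood at 4.38 against 10.8 FPKM, and Tap1, the peptide transporter encoded beside Psmb9, at 1.68 against 6.04. In Irf1, Psmb9, Psmb8 and Tap1, PBS replicate 1 was the highest library, and the insulin libraries lay together below all PBS libraries. Psmb10, a further immunoproteasome subunit, fell too. Its call ended without PBS replicate 1 (limma adjusted p = 0.0593) and in the fit of only the 6 libraries (0.0607). Without PBS replicate 1, 8 of the 19 members still fell, and 7 with insulin replicate 1 left out as well. The sum over the list was 120 to 140 FPKM in insulin and 205 to 328 in PBS.

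Some chemokines and genes of antigen presentation by MHC class II fell too. Cxcl10, an attractant of T cells, read 0.473, 0.147 and 0.438 FPKM in insulin and 7.34, 2.85 and 2.81 in PBS (-1.88 ± 0.32, adjusted p = 0.000733), and Cxcl9 averaged 0.992 against 4.72 FPKM. Cxcl1, an attractant of neutrophils, fell as well, and its call ended without insulin replicate 2 or PBS replicate 1 (adjusted p = 0.0691 and 0.0558). These were the 3 of 8 tested genes that fell on the list of NF-kB targets and chemokines, where none rose. Under either scaling 3 of that list fell and 1 rose. Cd74, the invariant chain of MHC class II, read 17.9, 17.6 and 16.2 FPKM in insulin and 109, 36.1 and 40.1 in PBS (-1.60 ± 0.27, adjusted p = 0.000715). The class II genes H2-Aa, H2-Ab1 and H2-Eb1, named after their values were seen, averaged 9.74 against 34.4, 7.08 against 26.6 and 4.97 against 17.3 FPKM. In PBS replicate 1 these 3 genes read 65.1, 53.1 and 31.8 FPKM, above the other PBS libraries (at most 19.5, 15.8 and 10.7), which in turn lay above every insulin library. Igtp and Tgtp1, interferon-inducible GTPases, fell by 1.32 and 1.64 on the log2 scale.

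**Figure D4:**
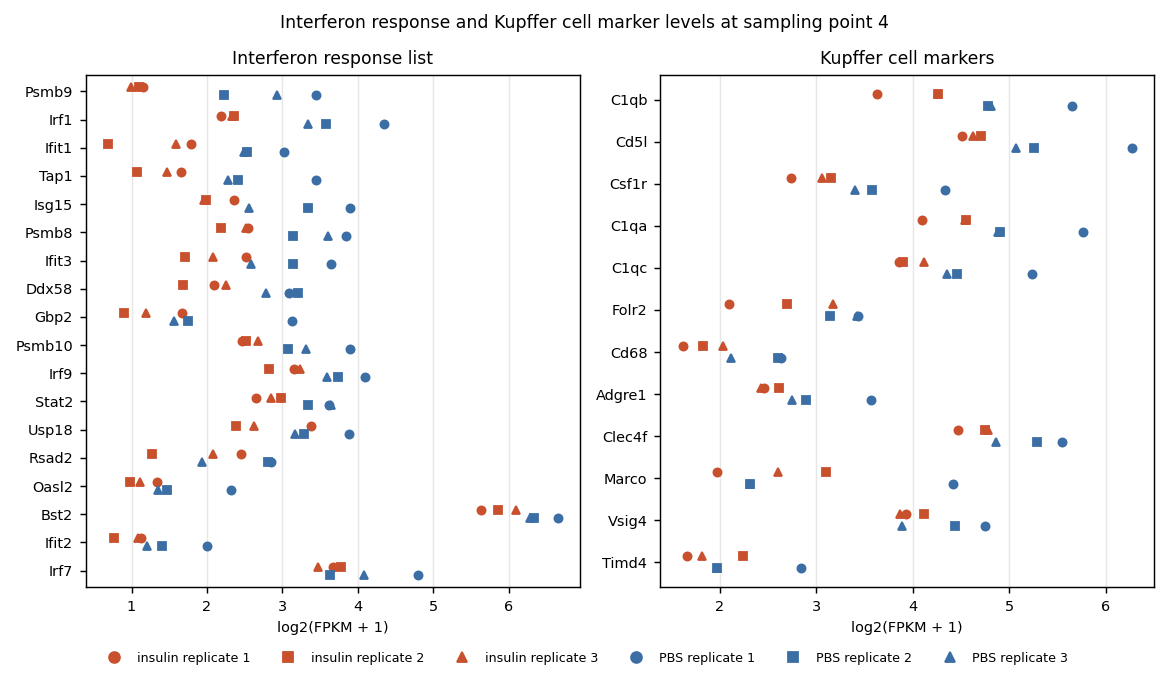
Levels (log2(FPKM + 1)) of members of the interferon response list and of 12 Kupffer cell markers in the 6 libraries of point 4, ordered by their difference. Circles are replicate 1, and the blue circle of PBS replicate 1 lies highest for Irf1, Tap1 and Cd5l among others, while red and blue symbols lie apart for genes at the top such as Psmb9, Irf1 and C1qb.

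Kupffer cell markers moved with the interferon list. Of 12 tested, 7 fell, none rose and 5 did not pass, with a median of -0.65, and their sum was 119 to 154 FPKM in insulin and 185 to 358 in PBS. C1qb, a complement component made by macrophages, read 11.4, 18.1 and 18.2 FPKM in insulin and 49.1, 26.4 and 27.1 in PBS (-1.03 ± 0.21, adjusted p = 0.00281). Csf1r, the receptor for the macrophage growth factor, averaged 6.96 against 13.2 FPKM (-0.79 ± 0.18, adjusted p = 0.00599). Clec4f, a lectin of Kupffer cells, read 21.2, 25.9 and 26.4 FPKM against 45.6, 38.0 and 28.0, and its call ended without insulin replicate 1 or 2 or PBS replicate 1 or 2 (adjusted p of 0.0512 to 0.12) and under both scalings (0.0729 and 0.0617). The count of markers that fell was 2 without PBS replicate 1, 3 without insulin replicate 1 and 0 by limma without both (4 at an unadjusted p under 0.05), where 7 of the interferon list fell. In the fit of only the 6 libraries 0 of the markers and 5 of the interferon list fell by limma. Under either scaling 5 of the markers fell. No marker of the list was at 0. The part of these markers in the interferon list's difference was not tested.

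Of 12 sinusoidal endothelial markers 4 fell and none rose, with a median of -0.37 and a sum of 69.6 to 89.4 FPKM in insulin against 96.7 to 118 in PBS. Gpr182, an atypical chemokine receptor of those cells, stood at 3.16 against 5.15 FPKM (-0.56 ± 0.12, adjusted p = 0.0055). In the fit of only the 6 libraries 0 of the 12 fell by limma, and after median-ratio scaling 1 fell. The count was also 1 without insulin replicate 1, insulin replicate 2 or PBS replicate 1, 2 without PBS replicate 3 and 6 without insulin replicate 3, and 0 by limma with both replicates 1 left out (1 at an unadjusted p under 0.05). None of 10 tested markers of stellate cells, the liver's pericytes, passed in either direction by limma (1 at an unadjusted p under 0.05), and their sums overlapped (156 to 180 against 171 to 197 FPKM).

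Of 20 tested transcription factors of hepatocytes, 9 fell, none rose and 11 did not pass, with a median of -0.56, and 8 fell after median-ratio scaling. Tbx3, a T-box factor of perivenous hepatocytes, read 1.30, 2.62 and 1.60 FPKM in insulin and 7.50, 8.88 and 6.57 in PBS (-1.63 ± 0.22, adjusted p = 6.6e-05). The groups lay well apart, with insulin replicate 2 nearest to PBS. Prox1, which restrains metabolic genes, stood at 15.6 against 26.3 FPKM and Rxra, the common partner of nuclear receptors, at 63.8 against 95.2. Cebpa, a bZIP factor of the mature hepatocyte, stood at 69.8 against 113 FPKM, and leaving out insulin replicate 1 or PBS replicate 3 ended its call (adjusted p = 0.0913 and 0.0582). The list's count was 5 without insulin replicate 1 or PBS replicate 3 and 3 with both replicates 1 left out.

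Receptors and feedback genes of the ErbB pathway, which carries epidermal growth factor signals, had 5 of 10 tested members lower and none higher (median -0.40). Egfr, the receptor itself, read 37.3, 42.7 and 43.2 FPKM in insulin and 64.0, 77.5 and 64.8 in PBS, with no overlap (-0.73 ± 0.18, adjusted p = 0.0108). Its call ended without insulin replicate 1 (adjusted p = 0.0552) and after median-ratio scaling (0.0509). Spry4 and Dusp6, feedback inhibitors of the MAP kinase cascade of which Dusp6 stands on another list, averaged 1.24 against 2.82 and 6.35 against 12.0 FPKM. Both calls ended without insulin replicate 2 (adjusted p = 0.179 and 0.155) without PBS replicate 1 or 2 (0.0546 to 0.086) and after median-ratio scaling (0.0528 and 0.0746), and that of Dusp6 also without PBS replicate 3 (0.0624) and after quantile normalization (0.0605). The list's count was 1 without insulin replicate 2 and 2 after median-ratio scaling.

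On the list of lipid droplets and lipolysis 5 of 14 fell, none rose and 9 did not pass (median -0.46), and after median-ratio scaling 3 fell and 1 rose. Cideb, a droplet protein needed for lipoprotein loading, read 70.2, 63.1 and 86.2 FPKM in insulin and 112, 112 and 143 in PBS (-0.74 ± 0.14, adjusted p = 0.00221). Plin2, the main droplet coat protein of the liver, averaged 135 against 247 FPKM and G0s2, an inhibitor of the lipase ATGL, 40.2 against 110. Plin2 no longer passed without insulin replicate 2 or PBS replicate 3 (adjusted p = 0.0732 and 0.0564), nor G0s2 without any replicate other than insulin 3 and PBS 2 (0.0513 to 0.0914), and the list's count was 1 without insulin replicate 2 or PBS replicate 3.

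On the list of fatty acid oxidation and ketogenesis 4 of 26 fell and 22 did not pass (median -0.27, and -0.11 after median-ratio scaling), against 11.9% of all genes. The count was 1 without insulin replicate 2 or PBS replicate 3, 2 without insulin replicate 1 and 8 without insulin replicate 3. Bdh1, which forms the ketone body 3-hydroxybutyrate, read 69.5, 61.2 and 75.0 FPKM in insulin and 110, 114 and 126 in PBS (-0.76 ± 0.12, adjusted p = 0.000237). Of 20 genes of fatty acid synthesis 4 fell, 1 rose and 15 did not pass (median -0.25, and -0.11 after median-ratio scaling). The number that fell was 0 by limma without insulin replicate 1, 1 without insulin replicate 2 or PBS replicate 3, 2 without PBS replicate 2 and 5 without insulin replicate 3. Fasn, fatty acid synthase, read 3.64 against 7.81 FPKM on average, and its call ended without insulin replicate 1 or 2 or PBS replicate 3 (adjusted p of 0.0575 to 0.123).

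Clock genes went both ways, with 4 of 16 lower and 1 higher, against 11.9% and 3.21% of all genes. The median was -0.37, and 4 were higher and 3 lower after median-ratio scaling. Dbp, a bZIP output factor, read 9.02, 7.56 and 8.93 FPKM against 25.8, 31.4 and 40.2. Its groups were wide apart, yet the call ended without insulin replicate 2 or PBS replicate 3 (adjusted p = 0.0569 and 0.0667). Cry1, a repressor of the clock, stood higher at 5.65 against 3.09 FPKM, a call that ended without the same libraries (adjusted p = 0.0557 and 0.0775). The lower count was 1 and 2 without these libraries in turn.

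Among hormones that the liver secretes, Inhbe, which encodes the activin E subunit (chromosome 10, 127348857 to 127354411), had the lowest difference of all genes in the named set. It read 2.60, 2.00 and 5.21 FPKM in insulin and 14.6, 16.7 and 15.5 in PBS (-2.03 ± 0.31, adjusted p = 0.000237), with insulin replicate 3 nearest to PBS. Igfals, which stabilizes circulating insulin-like growth factors, read 10.6, 12.6 and 14.3 FPKM against 23.9, 26.6 and 25.2 (-0.97 ± 0.23, adjusted p = 0.00778), so that it and Igfbp1 moved in opposite directions. Igfbp2, a further binding protein, averaged 270 against 501 FPKM, and its call ended without insulin replicate 1 or PBS replicate 3 (adjusted p = 0.104 and 0.134). Of the 12 genes of the insulin-like growth factor and growth hormone axis, 1 rose and 2 fell.

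Other genes with low values in insulin have varied roles. Spns2, an exporter of sphingosine 1-phosphate, read 1.38, 1.24 and 5.13 FPKM in insulin and 8.90, 7.80 and 19.8 in PBS (-1.93 ± 0.42, adjusted p = 0.00482), with replicate 3 highest in both groups. Paqr7, a membrane progestin receptor, averaged 4.33 against 16.9 FPKM, Cldn3, a tight junction claudin, 10.6 against 33.4, and Osgin1, an oxidative stress gene, 12.2 against 42.1. Among genes that rose, Atp1b1, the beta subunit of the sodium pump, read 61.2, 64.2 and 58.4 FPKM against 23.5, 21.9 and 18.0 (1.5 ± 0.18, adjusted p = 1.98e-05). Arl4d, a small GTPase, averaged 25.0 against 8.66 FPKM. Pmvk, phosphomevalonate kinase of sterol synthesis, read 19.2, 46.5 and 10.7 FPKM against 4.86, 4.80 and 5.12, a wide insulin spread, and its call ended without insulin replicate 2 (adjusted p = 0.0692).

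Of 76 cytosolic ribosomal protein genes 8 fell and of 67 nuclear genes of the respiratory chain 5 fell, neither above the 11.9% of all genes. Their medians were -0.25 and -0.24, against -0.14 for all genes. After median-ratio scaling the medians became -0.09 and -0.08, and 4 and 0 fell. These counts moved widely with single libraries, to 15 and 16 without insulin replicate 3, 1 and 0 without insulin replicate 1, 3 and 1 without insulin replicate 2, 3 and 4 without PBS replicate 1, and 0 and 0 by limma without PBS replicate 3. Among 29 secreted plasma proteins 1 fell and among 16 glycogen genes and 17 acute phase genes none passed by limma (4 and 5 at an unadjusted p under 0.05). None of the 13 mitochondrially encoded mRNAs passed by limma or at an unadjusted p under 0.05, with a median of 0.11.

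The differences at points 3 and 5 were set beside those at point 4 in the same fit, with a test of the change in the difference itself. Of 295 genes that rose and 1035 that fell at point 3, 158 and 546 did so at point 4 too, and 1 gene moved in opposite directions. Of 394 that rose and 2203 that fell at point 5, 183 and 869 did so at point 4 too, and none moved oppositely. The difference at point 4 lay above that at point 3 for 7 genes (0.0575%) and below it for 3 (0.0246%), with 535 genes at an unadjusted p under 0.05. It lay above that at point 5 for 0 genes (0%) and below it for 0 (0%) by limma, with 725 at an unadjusted p under 0.05.

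The genes that separated points 3 and 4 include fuel-switch genes. For Pdk4 the difference was 0.53 at point 3 and 3.30 at point 4, a change of 2.77 ± 0.36 (adjusted p = 0.00026), and at point 5 it was 3.06. Txnip went from -0.36 to 1.71, a change of 2.06 ± 0.22 (adjusted p = 1.34e-05), with 1.86 at point 5. Dnmbp, a scaffold of the actin cytoskeleton, fell at point 3 (-1.16) and rose at point 4 (0.64), the gene counted above with opposite directions (change 1.80 ± 0.19, adjusted p = 1.34e-05). Ppargc1a was higher in insulin at both points, by 2.64 at point 3 and 1.44 at point 4, and the fall of 1.20 ± 0.21 between them passed (adjusted p = 0.0163). The Ppargc1a call of that change ended without insulin replicate 1 or 3 or PBS replicate 1 (adjusted p of 0.0574 to 0.0977). Those of Pdk4, Txnip and Dnmbp held with each library of point 4 left out.

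**Figure D5:**
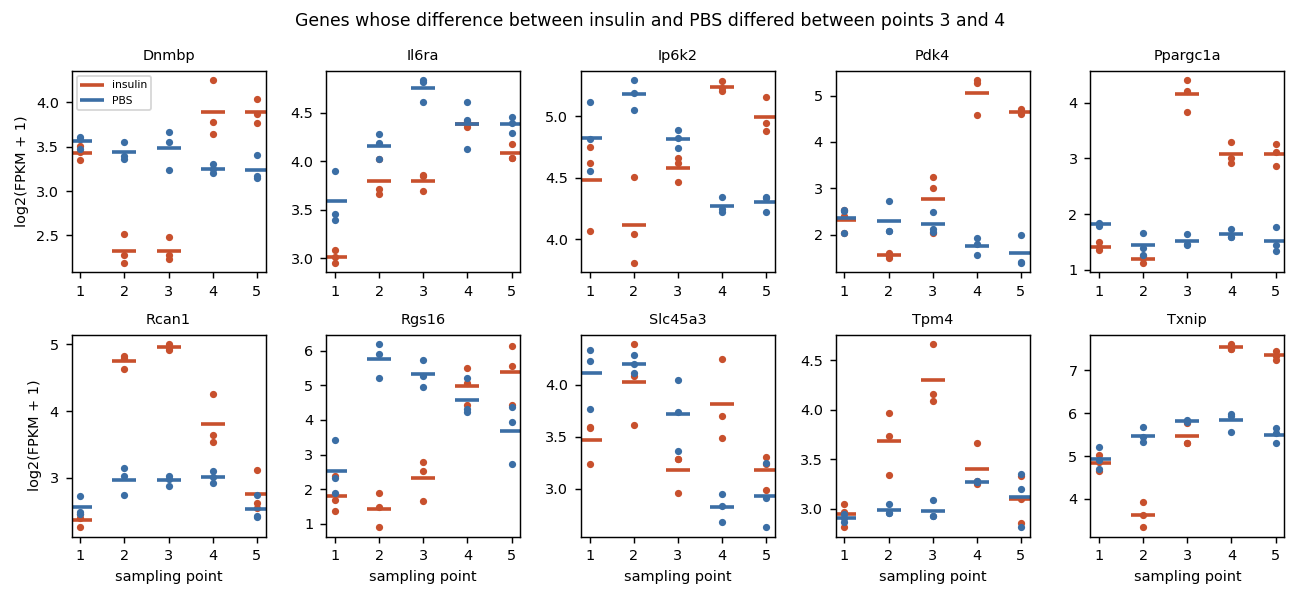
Levels (log2(FPKM + 1), vertical axes that differ by gene) at the 5 numbered sampling points of the 10 genes whose difference changed between points 3 and 4. Dots are libraries and bars are group means, insulin in red and PBS in blue. For Pdk4 and Txnip the 3 insulin libraries at points 4 and 5 lie above all PBS libraries.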

How the data were processed

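The authors deposited FPKM per gene for 30 liver libraries, from poly(A) RNA and a directional kit per the labels. The submitters' processing notes name HISAT2 2.1.0, SAMtools 1.9, StringTie 2.0.3 and GRCm38 (mm10), and neither annotation nor strand setting is given in the sources used here. FPKM are scaled to length and library, so no count test was run. Empty cells (32.2%) were taken as 0 FPKM. Depth was estimated from the steps of low values at 25.4 to 40.9 M reads for the 6 libraries of point 4. Only 40.4% to 47.3% of the values used were whole reads within 0.05, and doubled depths were not searched. This is therefore a rough guide, and reads could not be recovered.

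Groups and points come from the titles, where the number that takes 3 values was taken for the replicate. Values were set to log2(FPKM + 1), genes reaching 1 FPKM in 3 or more of these 6 libraries were kept, and limma 3.58.1 (R 4.3.3) fitted 10 group means over all 30 libraries with an intensity trend (20 residual degrees of freedom). Two-sided p-values were adjusted by Benjamini-Hochberg over all 12176 genes. The labels do not say that libraries are from separate animals. SEs and p-values rest on the spread within groups over all 30 libraries, not on that of the 6 compared alone. That spread may be technical. At most 0.131% of values were identical between libraries of a group.

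Named genes are the 15 highest and 15 lowest past the test with groups apart, a mean of 5 FPKM and a proper symbol, the 8 largest gains and losses of FPKM, the 6 textbook targets, up to 4 genes per list and the genes that separate points. Others, such as Ifit1, Clec4f, Cebpa and H2-Aa, were named after their values were seen, and a few genes under the rule are not reported here. The members and the 59 gene lists were chosen with earlier results of these data known. Positions are from GENCODE M21 on GRCm38 (29066 of 29117 IDs matched), and promoters are from RefSeq. Scripts were tested on simulated data. Genes that share reads with near copies or overlap others are uncertain.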

Additional observations from a re-analysis of the deposited data

Results flagged for a closer look

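For 10 genes the difference between insulin and PBS at point 4 differed from that at point 3 in limma's test of the change (adjusted p below 0.05), given here as the difference at point 4 minus that at point 3 on the log2(FPKM + 1) scale. It was 3.40 for Rgs16, a regulator of G protein signalling, which fell by 2.99 at point 3 and at point 4 read 32.3, 20.4 and 44.4 FPKM in insulin and 18.8, 17.8 and 36.4 in PBS, groups that overlap. It was 2.77 for Pdk4, 2.06 for Txnip and 1.80 for Dnmbp. It was 1.53 for Slc45a3, a sugar transporter, 1.21 for Ip6k2, an inositol hexakisphosphate kinase, and 0.95 for Il6ra, a subunit of the interleukin 6 receptor. It was -1.20 for Ppargc1a, -1.20 for Tpm4, a tropomyosin, and -1.19 for Rcan1, a calcineurin inhibitor.

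The calls of Pdk4, Txnip and Dnmbp held with each of the 6 libraries of point 4 left out. Those of the other 7 ended without insulin replicate 3, at adjusted p of 0.0977 for Ppargc1a to 0.167 for Rgs16, Slc45a3 and Tpm4, with 0.129 for Ip6k2, 0.146 for Il6ra and 0.153 for Rcan1. They also ended without insulin replicate 1, at 0.0619 for Ppargc1a to 0.136 for Rcan1 and Tpm4. Without PBS replicate 1 all of these but Il6ra ended, at 0.0574 for Ppargc1a to 0.147 for Rgs16. Without PBS replicate 2 all but Ppargc1a ended (0.0593 for Ip6k2 to 0.12 for Rgs16). Without PBS replicate 3 all but Ppargc1a and Rgs16 ended (at most 0.105 for Il6ra). Il6ra also ended without insulin replicate 2 (0.0508). In a fit of only points 3 and 4, Il6ra, Ppargc1a, Rcan1, Slc45a3 and Tpm4 stood at 0.144.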

How the results depend on the processing

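Of the 183 named genes that passed, 60 passed with each of the 6 libraries left out in turn and 40 under every alternative listed here other than the one chosen after seeing the data, and none of the 183 changed direction. The count of genes that rose was 391 and ranged from 150 to 386 with a library left out, and the count that fell was 1444 and ranged from 472 to 2061. Median-ratio scaling gave 934 and 828, quantile normalization 1020 and 873, a fit of only the 6 libraries 107 and 274, and insulin replicate 1 and PBS replicate 1 both left out (chosen after seeing the data) 195 and 272. The counts with a difference above that of point 3 (7) and below it (3) ranged from 3 to 9 and from 0 to 3 with a library left out. They were 3 and 0 with both replicates 1 left out. With no filter 3 lay above, and 5 lay below after quantile normalization and 1 in the fit of only the 6 libraries. Whether the replicate numbers pair the samples is not known. Deviations of same-numbered libraries correlated weakly, at 0.0399, 0.0361 and 0.0923, and those of differently numbered libraries at -0.0947 to 0.0582. With the replicate block the median SE went from 0.17 to 0.161, and 473 rose, 1972 fell and 5 lay below point 3. In that fit 17 ribosomal protein genes and 20 respiratory chain genes fell. Lane as a random effect gave 387 and 1428, but no lane held both treatments. A pseudocount of 0.1 gave 363 and 1397, no filter 342 and 1080. The causes of these shifts were not tested. With 3 libraries per group and a rough depth, the precision of each value is limited by the spread between libraries.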

Other observations

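Of 24 cytochrome P450 genes 2 rose and 1 fell, and of 23 genes of phase II conjugation 2 rose and 3 fell. Of all genes 3.21% rose and 11.9% fell. Of 9 tested ATF4 targets, genes of the amino acid and endoplasmic reticulum stress response, 2 fell. Trib3, a pseudokinase that binds Akt, averaged 2.24 against 5.27 FPKM (-0.96 ± 0.21, adjusted p = 0.00473). Hspb1, a small heat shock protein, averaged 6.29 against 15.3 FPKM (-1.13 ± 0.24, adjusted p = 0.00436).

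Ppp1r3g, a glycogen-targeting subunit of protein phosphatase 1, read 13.7, 1.57 and 10.9 FPKM in insulin and 0.173, 0.0481 and 0.821 in PBS. All insulin libraries lay above all PBS libraries, but the difference of 2.55 ± 0.92 did not pass (adjusted p = 0.0598). Hmox1, heme oxygenase 1, passed with 39.2 ± 37.0 FPKM (SD, n = 3) against 12.3 ± 3.34. Its call ended without insulin replicate 2 or PBS replicate 2 or 3 (limma adjusted p = 0.232, 0.0673 and 0.12). It also ended in the fit of only the 6 libraries (0.17).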
